A study of Macaca mulatta with 12 samples.

Results

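Heat shock proteins and the chaperones that work with them in the cytosol were followed in liver biopsies of rhesus macaques (Macaca mulatta). Members were the genes whose symbol placed them among the HSP70, HSP110, HSP90, small HSP, HSP60 and HSP10 proteins, the J proteins (DNAJ), the BAG cochaperones, the CCT chaperonin subunits or the heat shock factors. The endoplasmic reticulum chaperones HSPA5 and HSP90B1 were left out by that choice. It gave 74 gene identifiers with 72 symbols, of 23993 genes in the table, and 71 of the 74 passed the filter on low counts, as did 18373 genes in all. DNAJC5G, HSPB3 and HSPB7 did not pass and had at most 0.519 CPM in any library (CPM, counts scaled to library size). The choice is wider than the cytosol, since it takes mitochondrial members such as HSPA9, HSPD1 and DNAJA3 and J proteins of the endoplasmic reticulum such as DNAJC3, DNAJC10 and DNAJB11.

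Chaperones of the HSP70 family bind stretches of unfolded protein and release them in cycles of ATP hydrolysis. J proteins start each cycle and choose the substrate, and HSP110 and BAG proteins end it by exchanging the nucleotide. Substrates can pass on to HSP90 or to the CCT chaperonin, a closed barrel that folds actin and tubulin, and heat shock factor 1 turns on the inducible members when unfolded protein accumulates. In liver cells these proteins support a heavy load of protein synthesis.

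The animals were 6 males of about 4.6 years, whose livers were sampled once before ethanol and once after 90 days of induction, when every animal received 0.5, 1 and then 1.5 g of ethanol per kg per day, for 30 days at each dose. All then had free access to ethanol for 12 months, by the end of which 3 of them drank 4 g per kg per day and are called very heavy drinkers (VHD), and 3 drank 1.5 g per kg per day and are called light drinkers (LD). The 4 groups were thus VHD post-induction, VHD baseline, LD post-induction and LD baseline, with 3 libraries each. The class names describe drinking that came after both biopsies, no animal went without ethanol, and the baseline biopsies came first in every animal, so ethanol and the time between the biopsies cannot be told apart.

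The libraries held 5970033 to 25060718 transcript counts, and the members took 0.212 to 0.292% of them. LD post-induction 2 and LD post-induction 3, VHD post-induction 1, VHD post-induction 3 and VHD baseline 2 lay on 1 side of the first principal component (31.4% of the variance), so that 4 of 6 post-induction libraries and 1 of 6 baseline libraries were there. VHD baseline 3 and VHD post-induction 2 stood apart on the second (20.6%). Hepatocyte markers (7 of 8 found, none at 0) summed to 137400 to 204100 CPM in VHD post-induction, 120100 to 230500 in VHD baseline, 165800 to 239000 in LD post-induction and 188200 to 225000 in LD baseline libraries, as the liver label implies. In such bulk samples fewer cells of a type and less RNA per cell cannot be told apart.

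The first question was whether the livers changed their chaperone RNA over the induction, taken as the mean of the VHD and the LD response (6 animals, post-induction over baseline). No member passed: 0 of 71 had an adjusted p under 0.05 in edgeR's quasi-likelihood test with Benjamini-Hochberg adjustment over all genes, where 49 of 18373 genes (0.267%) did, 3 of them higher (0.0163%) and 46 lower (0.25%). DESeq2 called 2 members, CCT2 and HSPA14, both lower, beside 2.25% of the genes it adjusted (1.64% lower). At an unadjusted p under 0.05 edgeR had 10 members, or 14.1% beside 7.91% of all genes. Of these, 5 were higher and 5 lower post-induction, beside 3.76% and 4.16% of all genes. That count of 10 was 17 without LD post-induction 1, 6 without LD baseline 1 or LD baseline 2, and 5 without LD post-induction 3, LD baseline 3 or VHD baseline 1. Fold changes of the members ranged from -1.01 to 1.13 on the log2 scale, 32 were positive and 39 negative, and their median was -0.04, beside 0.07 for all genes. The 95% interval lay within 1 log2 unit of 0 for 39 of the 71, so a change of 2-fold or more was outside the interval of these and inside that of the other 32.

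**Figure D1:**
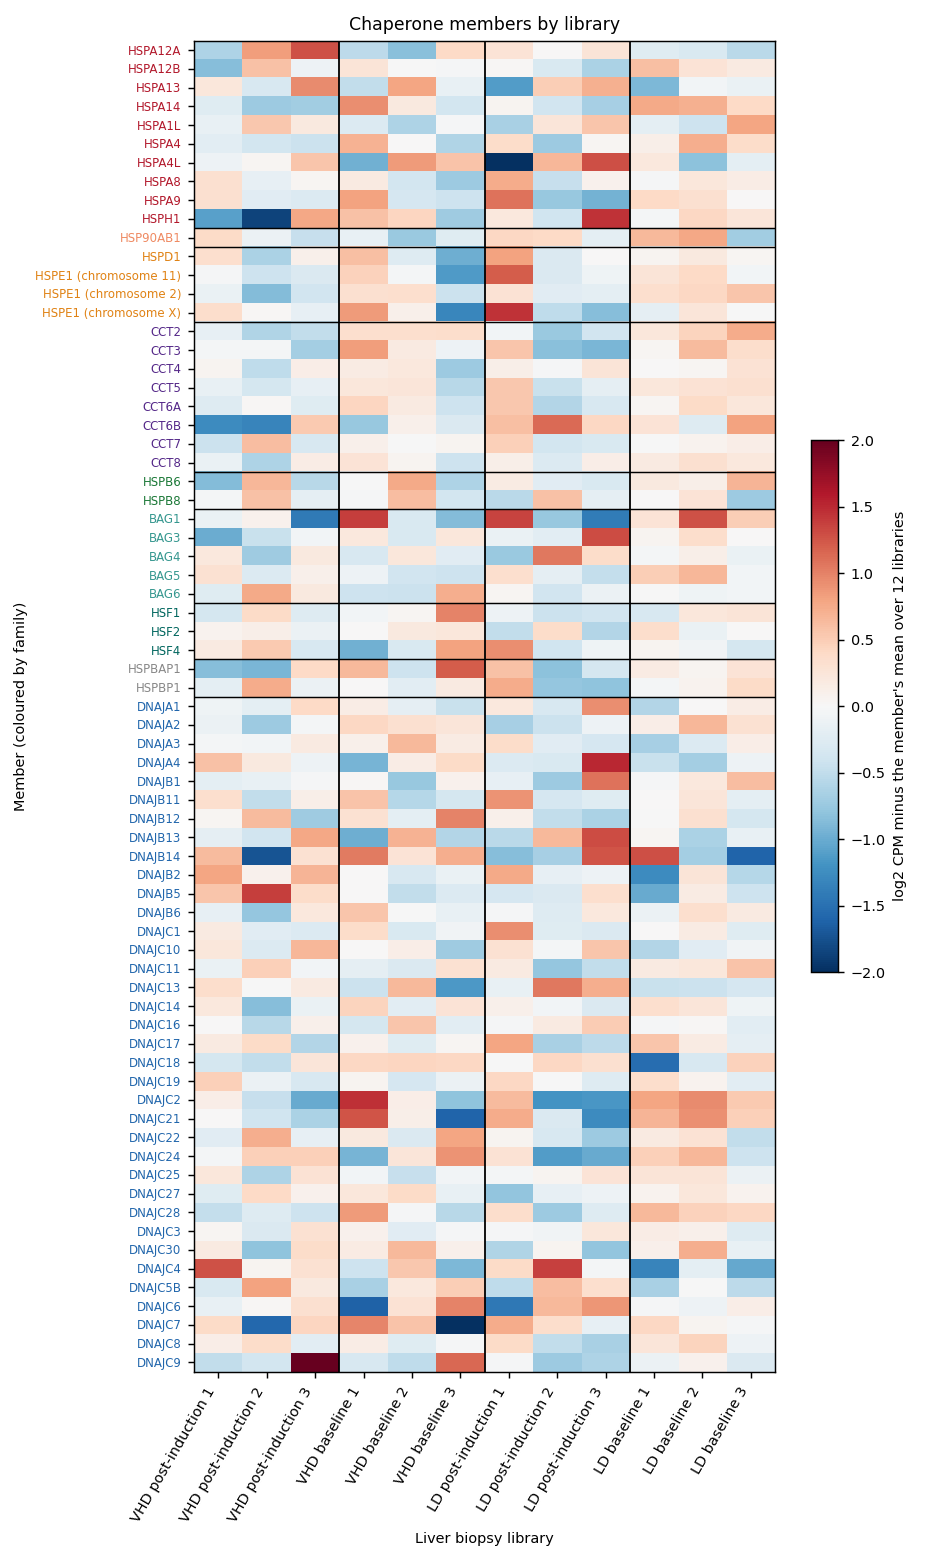
Chaperone RNA in the 12 libraries, as log2 CPM minus the mean of each member over all libraries (colour), with members as rows grouped by family and libraries as columns in the 4 groups. No group has a colour of its own across the members. Single squares stand out, high ones such as DNAJC9 in VHD post-induction 3 (85.7 CPM) and HSPH1 in LD post-induction 3 (20.6 CPM). Low ones include HSPH1 in VHD post-induction 2 (1.97 CPM) and DNAJC7 in VHD baseline 3 (0.667 CPM).

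**Figure D2:**
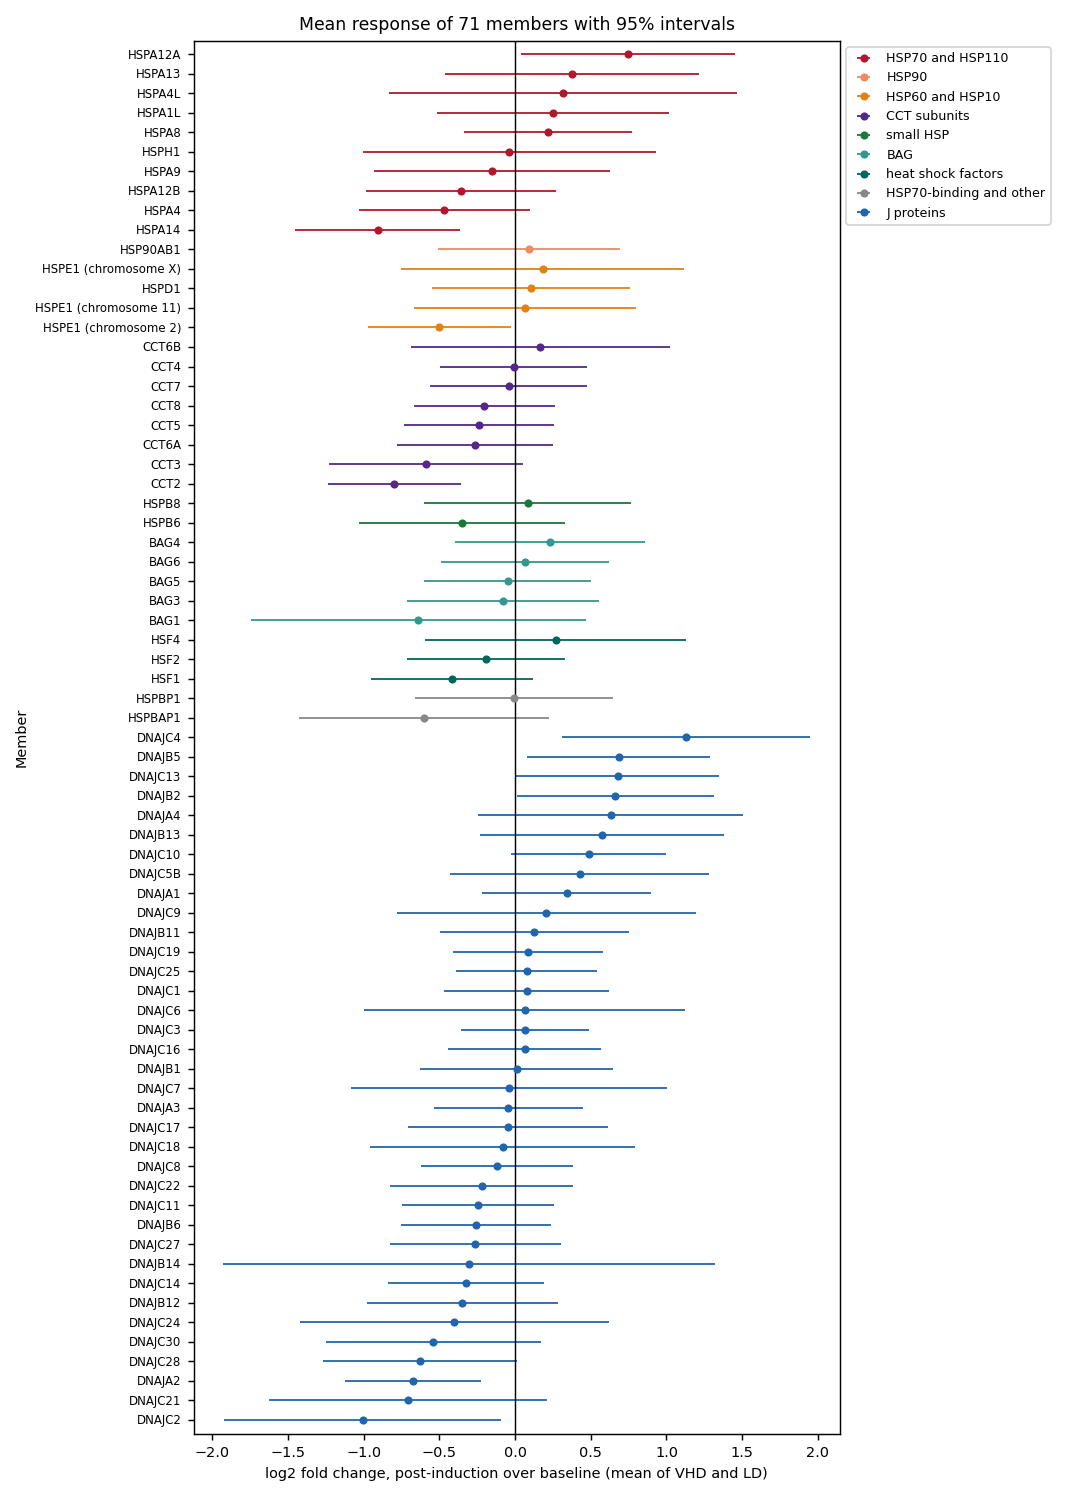
Mean response of the 71 tested members, as log2 fold change of post-induction over baseline (points) with 95% intervals (lines), ordered within families. The interval leaves out 0 for 10 members, 5 on each side.

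The lowest p among the members belonged to CCT2, the beta subunit of the chaperonin (chromosome 11, 68345655 to 68361546, plus strand, Mmul_8.0.1). Its level was 72.3, 53.5 and 57.8 CPM in VHD post-induction libraries, against 102, 102 and 103 CPM in VHD baseline libraries. In LD animals it was 78.1, 48.7 and 62.4 CPM post-induction, against 95.2, 110.2 and 135.5 CPM at baseline. Every post-induction library was below every baseline library, and the level was lower in 6 of 6 animals. The log2 fold change was -0.80 ± 0.20 (SE, 95% interval -1.23 to -0.36), and it failed the adjustment (adjusted p = 0.176). DESeq2 called it (adjusted p = 0.00841), and over all 20 alternatives the value was -0.91 to -0.72 and the adjusted p 0.00841 to 0.516.

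A chaperonin barrel holds 8 kinds of subunit, of which the choice of members takes 7 together with CCT6B, a form enriched in testis. In the mean response 7 of these 8 genes were negative and the median was -0.22. CCT3, the gamma subunit, came after CCT2 with -0.59 ± 0.30 (adjusted p = 0.677) and was lower in 5 of 6 animals. Its level was 58.9, 59.1 and 37.9 CPM in VHD post-induction libraries, against 108, 68.9 and 56.8 CPM in VHD baseline libraries. The LD libraries had 89.2, 33.9 and 32.0 CPM post-induction, against 62.1, 94.1 and 77.1 CPM at baseline. These groups overlap, and LD post-induction 1 was among the higher libraries.

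The other subunits were nearer to 0. CCT6A had -0.26 ± 0.24, CCT5 -0.24 ± 0.23, CCT8 -0.20 ± 0.22, CCT7 -0.04 ± 0.24 and CCT4 -0.01 ± 0.22, and CCT6B had 0.17 ± 0.40. TCP1, the alpha subunit, which the choice of symbols does not take, had 0.05 ± 0.27. The other subunits thus lay nearer to 0 than CCT2 did, with a 95% interval of -0.49 to 0.47 for CCT4, and no test of 1 subunit against another was made. Animals differed as well, with 8 of 8 subunits lower post-induction in VHD1 and LD3, 7 of 8 in VHD2 and LD2, but only 3 of 8 in VHD3 and 2 of 8 in LD1.

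HSPA14 and DNAJC2, which in human cells form the ribosome-associated complex that meets nascent chains as they leave the ribosome, were both lower post-induction in 6 of 6 animals. HSPA14 (chromosome 9, 14924967 to 14957397, plus strand) had 14.1, 10.02 and 10.2 CPM in VHD post-induction libraries, against 31.6, 19.0 and 12.8 CPM in VHD baseline libraries. Its level in LD animals was 17.3, 12.7 and 10.4 CPM post-induction, against 28.2, 27.3 and 21.9 CPM at baseline. The LD groups did not overlap, while in VHD animals the lowest baseline library, VHD baseline 3, lay between the post-induction ones. HSPA14 overlaps an identifier without a symbol on the same strand, which had at most 2.83 CPM in any library. The fold change was -0.91 ± 0.25 (adjusted p = 0.246), DESeq2 called it narrowly (adjusted p = 0.0495), and over 20 alternatives the adjusted p was 0.0495 to 0.572.

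DNAJC2 had 9.94, 6.52 and 4.42 CPM in VHD post-induction libraries, against 25.2, 9.91 and 5.11 CPM in VHD baseline libraries. LD animals had 14.04, 3.88 and 3.93 CPM post-induction, against 15.8, 17.4 and 13.0 CPM at baseline. Each animal was lower after than before, yet the groups overlap widely, since VHD baseline 3 was as low as the lower post-induction libraries. Its fold change was -1.01 ± 0.43 (adjusted p = 0.569), and it was -0.60 without VHD baseline 1.

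DNAJA2, a farnesylated J protein of the cytosol that feeds substrates to HSP70, was the other member with no overlap between the time points. It had 62.6, 41.0 and 66.1 CPM in VHD post-induction libraries, against 89.8, 84.02 and 80.3 CPM in VHD baseline libraries. LD animals had 42.5, 49.98 and 63.1 CPM post-induction, against 73.9, 107 and 83.1 CPM at baseline. The fold change was -0.67 ± 0.21 (adjusted p = 0.319). DNAJC14, a J protein of the endoplasmic reticulum membrane, was also lower in 6 of 6 animals, with a smaller value of -0.32 ± 0.24 (adjusted p = 0.800) and overlapping groups.

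Thus 5 of 71 members were lower in 6 of 6 animals, beside 3.74% of all genes, and 0 were higher in 6 of 6, beside 2.68%. All 6 post-induction libraries lay below all 6 baseline libraries for 2 members (CCT2 and DNAJA2), beside 0.849% of all genes, and above them for 0 members, beside 0.142%. Immediate early genes, which many cells induce within minutes of handling or stress, were looked at in the same contrast. Of 20 listed, 13 were found and tested, with 11 negative and 2 positive values. In edgeR's quasi-likelihood test 5 of the 13 (FOS, JUNB, KLF6, MYC and ZFP36) fell (adjusted p 0.0117 to 0.0423), beside 0.25% of all genes. The summed level of the 13 was 106 to 179 CPM in VHD post-induction, against 438 to 848 CPM in VHD baseline, and 93.6 to 202 CPM in LD post-induction, against 429 to 943 CPM in LD baseline libraries. Of the macrophage and Kupffer cell markers (7 of 9 found, none at 0) 0 of 7 passed, with 7 of 7 negative in the VHD response (median -0.55) and 4 of 7 in the LD response (median -0.01). They summed to 265 to 732 CPM in VHD post-induction, against 417 to 966 CPM in VHD baseline, and to 169.9 to 462 CPM in LD post-induction, against 499.6 to 582 CPM in LD baseline libraries. Other marker lists moved too, with none passing. In the mean response 4 of 4 erythroid markers were positive (median 0.54) and 3 of 4 cholangiocyte markers (median 0.47). Neutrophil markers had 2 positive and 2 negative values (median -0.45, and -0.67 in the VHD response). Medians of the T and NK, B and plasma, sinusoidal endothelium and stellate cell lists were -0.089 to 0.001. The part of any of these lists in the values of CCT2, HSPA14, DNAJA2 and DNAJC2 was not tested. With a term for the side of the first component the values of these 4 were -0.76, -0.82, -0.87 and -0.66.

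**Figure D3:**
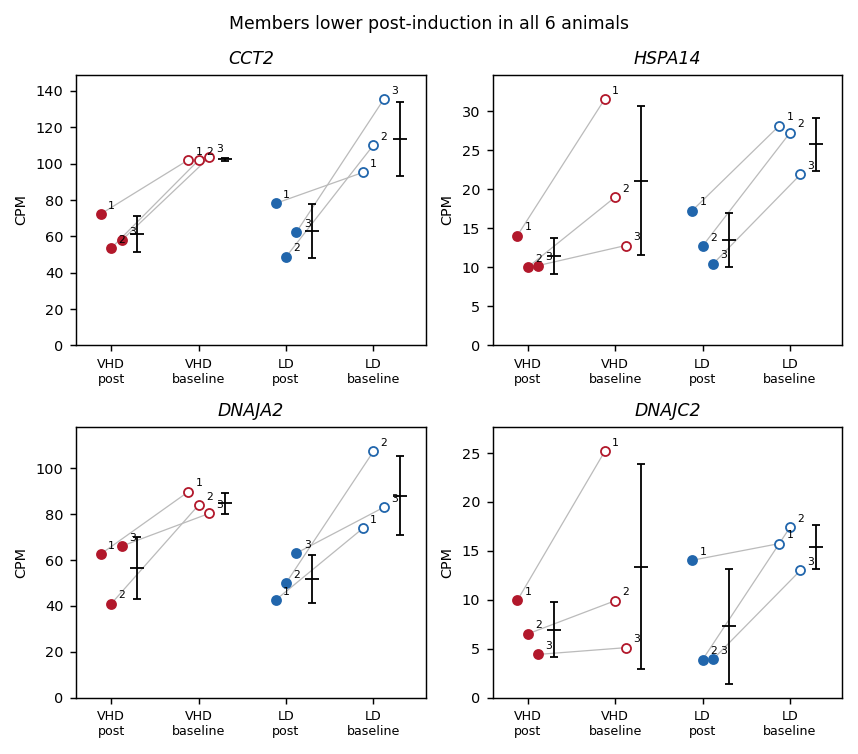
CPM (y axis) of CCT2, HSPA14, DNAJA2 and DNAJC2 in the 4 groups, with 1 point per library, numbers naming the animal within its class, grey lines joining the libraries of 1 animal, and bars giving mean and SD (n = 3). All post-induction points of CCT2 and DNAJA2 lie below all baseline points, and VHD baseline 3 is low for HSPA14 (12.8 CPM) and DNAJC2 (5.11 CPM).

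The 5 members with the lowest p among the higher ones were 4 J proteins and a divergent HSP70, each higher in 5 of 6 animals. DNAJC4 (chromosome 14, 10293521 to 10296877, minus strand) had 8.97, 3.78 and 4.56 CPM in VHD post-induction libraries, against 2.69, 5.36 and 1.89 CPM in VHD baseline libraries. LD animals had 4.77, 9.57 and 3.55 CPM post-induction, against 1.38, 3.16 and 1.72 CPM at baseline. The LD groups did not overlap, and in VHD animals only VHD2 went the other way. The fold change was 1.13 ± 0.38 (adjusted p = 0.381), the highest of all members, on 8 to 148 counts per library.

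DNAJB5, a type B J protein of the same class as DNAJB1, had 10.07, 17.9 and 8.75 CPM in VHD post-induction libraries, against 6.83, 4.80 and 5.59 CPM in VHD baseline libraries. LD animals had 5.35, 5.50 and 8.63 CPM post-induction, against 3.29, 7.59 and 5.03 CPM at baseline. The VHD groups were apart and the LD groups overlapped, and the mean response was 0.68 ± 0.28 (adjusted p = 0.549). HSPA12A, a member of a divergent HSP70 branch, had 3.17, 8.93 and 12.1 CPM in VHD post-induction libraries, against 3.42, 2.71 and 6.59 CPM in VHD baseline libraries. In LD animals the 3 libraries post-induction held 5.99, 4.98 and 5.94 CPM, against 4.15, 3.99 and 3.38 CPM at baseline, all above the baseline ones, for a mean response of 0.75 ± 0.33 (adjusted p = 0.587). HSPA12A overlaps ENO4 on the other strand.

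DNAJB2, a J protein with ubiquitin-interacting motifs, had 0.66 ± 0.30 (adjusted p = 0.618), and it overlaps PTPRN on the other strand, so that reads of the 2 genes may not be told apart. DNAJC13, the endosomal J protein RME-8, had 0.68 ± 0.31 (adjusted p = 0.622). Its level was 12.8, 9.91 and 11.3 CPM in VHD post-induction libraries, against 7.35, 15.7 and 4.41 CPM in VHD baseline libraries. LD animals had 9.01, 20.9 and 16.7 CPM post-induction, against 7.27, 7.34 and 7.91 CPM at baseline, with no overlap. Among the J proteins of the endoplasmic reticulum, the disulfide reductase DNAJC10 (ERdj5) had 0.49 ± 0.24 (adjusted p = 0.659), DNAJB11 (ERdj3) 0.13 ± 0.29 and DNAJC3 (p58IPK) 0.06 ± 0.20. Over all 36 tested J proteins the signs were even, with 18 positive and 18 negative.

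Among the main HSP70 machines, HSPA8, the constitutive cytosolic HSP70, had 475, 337 and 389.7 CPM in VHD post-induction libraries, against 429, 292 and 228 CPM in VHD baseline libraries. LD animals had 635, 276 and 403 CPM post-induction, against 374, 441 and 418 CPM at baseline. LD post-induction 1 was the highest library, and the groups overlap in both classes (mean response 0.22 ± 0.26, adjusted p = 0.907). Its gene hosts 2 SNORD14 small nucleolar RNA identifiers on the same strand, with 278 to 1750 CPM and 593 to 2977 CPM over the libraries. They have counts of their own, but whether their reads were kept apart from those of HSPA8 was not settled. HSPA9, the mitochondrial HSP70 mortalin, had a mean response of -0.15 ± 0.36 (adjusted p = 0.969) and ranged from 101 to 413 CPM over the 12 libraries. It overlaps 2 SNORD63 identifiers on the same strand, with 42.1 to 1355 CPM and 1.93 to 71.9 CPM, and the same doubt holds there. HSPA4, an HSP110-class exchange factor, was at -0.47 ± 0.26 (adjusted p = 0.720; -0.27 without VHD baseline 1), and HSP90AB1, the constitutive HSP90 of the cytosol, at 0.09 ± 0.28 (adjusted p = 0.977).

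The mitochondrial chaperonin HSPD1 (HSP60) had 283, 146 and 243 CPM in VHD post-induction libraries, against 342, 189 and 114 CPM in VHD baseline libraries. LD animals had 394, 184 and 226 CPM post-induction, against 234, 259 and 231 CPM at baseline. The groups overlap, and the mean response was 0.11 ± 0.30 (adjusted p = 0.975). HSPD1 overlaps the identifier of its lid HSPE1 (HSP10) on the other strand of chromosome 2, so that reads of the 2 may not be told apart there. The HSPE1 identifier had -0.50 ± 0.22 (adjusted p = 0.584). That identifier joins 2 sets of transcripts that do not overlap each other, and 1 transcript across both with 2.48% of its counts: 2 transcripts from 148841437 to 148876655 gave 63.7% of its counts, and 3 from 148891144 to 148893918 gave 33.8%. The first set had 23.3, 12.3 and 21.2 CPM in VHD post-induction libraries, against 27.3, 39.8 and 27.6 CPM in VHD baseline libraries, and 14.4, 26.7 and 27.9 CPM in LD post-induction libraries, against 37.5, 41.8 and 49.6 CPM in LD baseline libraries.

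The second set had 15.7, 11.2 and 12.5 CPM in VHD post-induction libraries, against 24.04, 13.2 and 4.86 CPM in VHD baseline libraries. In LD animals it had 36.1, 10.9 and 10.6 CPM post-induction, against 17.5, 15.5 and 14.7 CPM at baseline. The first set was lower post-induction without overlap in each class and the second set overlapped in both, so the value of the whole identifier follows the first set. Whether the first set is RNA of HSPE1 was not settled, and the -0.50 may therefore not be a value of HSPE1. The symbol HSPE1 is also given to identifiers on chromosomes 11 (0.06 ± 0.34, adjusted p = 0.983) and X (0.18 ± 0.43, adjusted p = 0.969). Each is 1 short transcript, from 3627346 to 3627655 and from 120574149 to 120574458, and whether either is a working HSPE1 gene was not settled. As copies under 1 symbol the 3 may share reads, which makes their values uncertain. The DNAJC25 identifier joins 2 such separate transcripts as well, with 60.8% and 39.1% of its counts.

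Small HSPs, BAG proteins and heat shock factors gave no called value either. HSPB8, which works with BAG3 in the removal of aggregates by autophagy, had 0.08 ± 0.32 (adjusted p = 0.980). BAG1 had -0.64 ± 0.51 (adjusted p = 0.820), and its level ran from 3.02 to 21.8 CPM over the 12 libraries. The value of BAG1 was -0.157 without VHD baseline 1 and -1.30 without LD post-induction 1. HSF1, the main heat shock factor, had -0.42 ± 0.25 (adjusted p = 0.737) and HSF2 -0.19 ± 0.24 (adjusted p = 0.916). HSF1 was highest in VHD baseline 3, at 35.1 CPM against 13.0 to 22.9 CPM in the other 11 libraries, without which its value was -0.25, and it overlaps DGAT1 on the other strand. DNAJB6, which keeps polyglutamine proteins from aggregating, had -0.26 ± 0.23 (adjusted p = 0.849). HSPA1A, HSPA1B, HSP90AA1, HSPB1 and DNAJB9 matched no identifier and were not analysed here, so the strongly heat-inducible HSP70 genes are not among the values.

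Several well-known members had their highest level in the same library, LD post-induction 3, and were grouped after their values were seen. DNAJB1, the classical inducible HSP40, had 36.4, 37.8 and 41.05 CPM in VHD post-induction libraries, against 42.3, 24.7 and 44.4 CPM in VHD baseline libraries. LD animals had 37.4, 25.2 and 88.7 CPM post-induction, against 41.2, 48.6 and 64.2 CPM at baseline. The 88.7 CPM belonged to LD post-induction 3, and the mean response was 0.01 ± 0.30 (adjusted p = 0.998).

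BAG3, an exchange factor induced by heat shock factor 1, had 6.49, 9.53 and 12.5 CPM in VHD post-induction libraries, against 15.1, 10.6 and 15.3 CPM in VHD baseline libraries. LD animals had 11.8, 11.2 and 32.3 CPM post-induction, against 13.5, 16.7 and 13.2 CPM at baseline. It was lower in 5 of 6 animals, with LD3 the exception, and its mean response was -0.08 ± 0.30 (adjusted p = 0.979). HSPH1, the inducible HSP110, had 3.45, 1.97 and 12.8 CPM in VHD post-induction libraries, against 11.3, 10.2 and 4.52 CPM in VHD baseline libraries, and 8.64, 5.62 and 20.6 CPM in LD post-induction libraries, against 7.27, 9.99 and 8.84 CPM in LD baseline libraries. Again LD post-induction 3 was the highest library, and the mean response was -0.04 ± 0.45 (adjusted p = 0.994).

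DNAJA1, the most studied type A J protein, was highest there too, at 238 CPM against 82.9 to 164 CPM in the other 11 libraries, and DNAJA4 had 5.08 CPM there against at most 2.62 CPM elsewhere. Their mean responses were 0.34 ± 0.26 (adjusted p = 0.805) for DNAJA1, which was 0.14 without LD post-induction 3 and 0.18, 0.19 and 0.22 without LD baseline 1, VHD post-induction 3 and VHD baseline 3, and 0.63 ± 0.41 (adjusted p = 0.756) for DNAJA4. In all, LD post-induction 3 was the highest library for 7 members (9.86%, beside 9.67% of all genes), also for DNAJB13 and HSPA4L. The number of peaks there was thus close to that of other genes. Of 23 other cytosolic chaperones and cochaperones, 3 were highest there (FKBP4, STIP1 and VBP1), 7 were highest in LD post-induction 1 and the rest in other libraries. LD post-induction 3 is 1 library of 1 animal, and no treatment in the labels sets it apart.

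LD post-induction 1 was the highest library for 12 members, 16.9% of those tested beside 10.3% of all genes. They included HSPA8 (635 CPM), HSPA9 (413 CPM), HSPD1 (394 CPM), the HSPE1 identifiers on chromosomes 11 and X, CCT5 (108 CPM) and CCT6A. The summed level of the members was highest there, at 3335 CPM, against 1973 CPM in LD post-induction 2, the lowest. The share of peaks differed from that of all genes in other libraries too, and in both directions. It was 9.86% beside 3.65% in LD baseline 2, and 7.04% beside 15.8% in VHD post-induction 2.

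**Figure D4:**
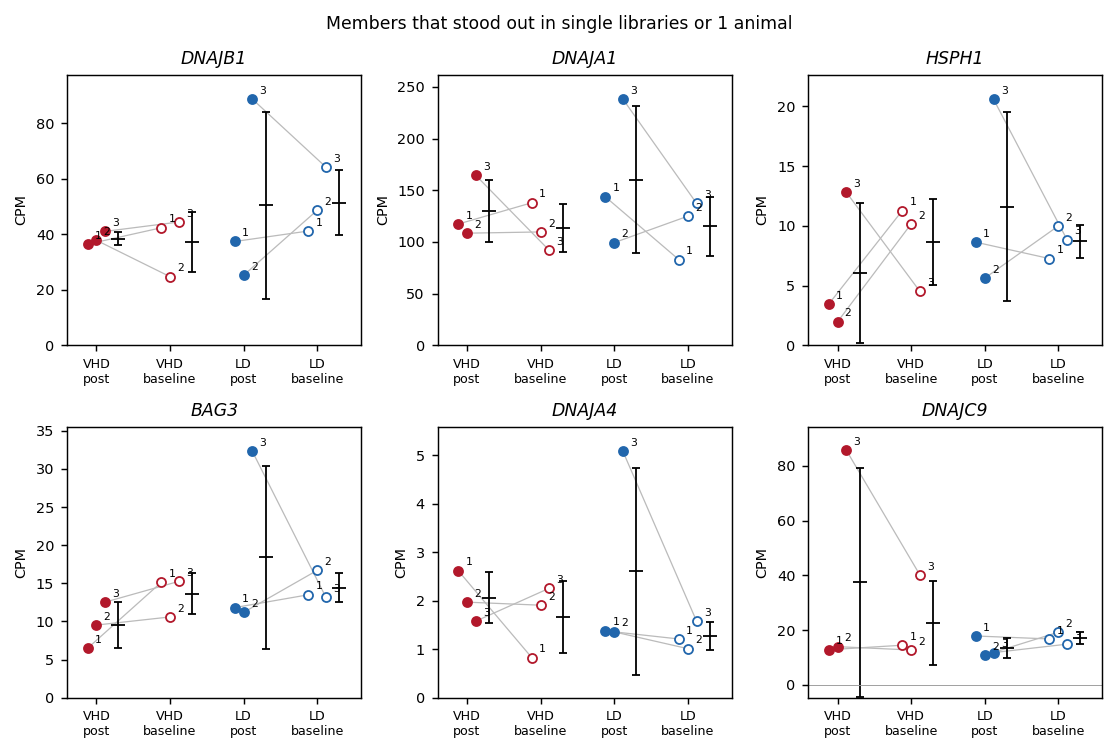
CPM (y axis) of 5 cochaperones that peaked in LD post-induction 3 and of DNAJC9, with 1 point per library, numbers naming the animal within its class, grey lines joining the libraries of 1 animal, and bars giving mean and SD (n = 3; a bar can pass below 0). DNAJC9 is high in both libraries of animal VHD3, at 85.7 and 40.1 CPM.

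Within VHD animals alone, no member passed (0 of 71, beside 0% of all genes, edgeR's quasi-likelihood test with Benjamini-Hochberg adjustment). DESeq2 called 0 members, beside 0.537% of the genes it gave an adjusted p, and a member without one counts as not called. At an unadjusted p under 0.05 edgeR had 3 members, or 4.23% beside 3.44% of all genes (1.22% higher and 2.22% lower). They were DNAJB5, higher in 3 of 3 animals (1.10 ± 0.40), and CCT2 (-0.74 ± 0.29) and HSPA14 (-0.89 ± 0.36), lower in 3 of 3, each with adjusted p = 1.00. HSPA12A (0.93 ± 0.46) and DNAJB2 (0.71 ± 0.42) followed among the higher members and DNAJA2 (-0.58 ± 0.30) among the lower ones. Without VHD post-induction 2 DNAJB5 was at 0.71, without VHD post-induction 3 HSPA12A was at 0.51, and without VHD baseline 1 HSPA14 was at -0.48. In all, 10 of 71 members were lower and 5 higher in 3 of 3 animals, beside 9.89% and 9.54% of all genes.

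Within LD animals the count in edgeR was again 0 of 71, beside 0% of all genes. DESeq2 also called 0 members, beside 0.341% of the genes it gave an adjusted p. At an unadjusted p under 0.05 edgeR had 5 members, or 7.04% beside 5.7% of all genes (3.33% higher and 2.37% lower). Higher were DNAJC4 (1.48 ± 0.55) and DNAJC13 (1.05 ± 0.44), and lower were CCT2 (-0.85 ± 0.29), HSPA14 (-0.93 ± 0.36) and DNAJA2 (-0.77 ± 0.30), all with adjusted p = 0.856 in edgeR's quasi-likelihood test. DNAJA4 had 1.01 ± 0.58 (adjusted p = 0.867), which was 0.11 without LD post-induction 3, and DNAJC4 was at 0.96 without LD post-induction 2. In 3 of 3 LD animals 15 of 71 members were lower and 7 higher, beside 12.7% and 15.9% of all genes.

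The VHD and the LD response come from different animals, so their values can be set side by side. CCT2, HSPA14, DNAJA2 and DNAJC2, however, were named for their low p in the mean of these 2 responses and were lower in every animal. Negative values in both classes were thus fixed by that choice and are no separate result. In that order they were -0.74 and -0.85, -0.89 and -0.93, -0.58 and -0.77, and -0.95 and -1.07 for VHD and LD. In all, 44 of 71 members (62.0%) had the same sign in both classes, 26 negative and 18 positive, beside 61.8% of all genes, so the share was that of any genes. Across the members Pearson's r of the 2 responses was 0.50, and across all genes 0.31, as a description only, since genes of the same libraries are not independent replicates.

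**Figure D5:**
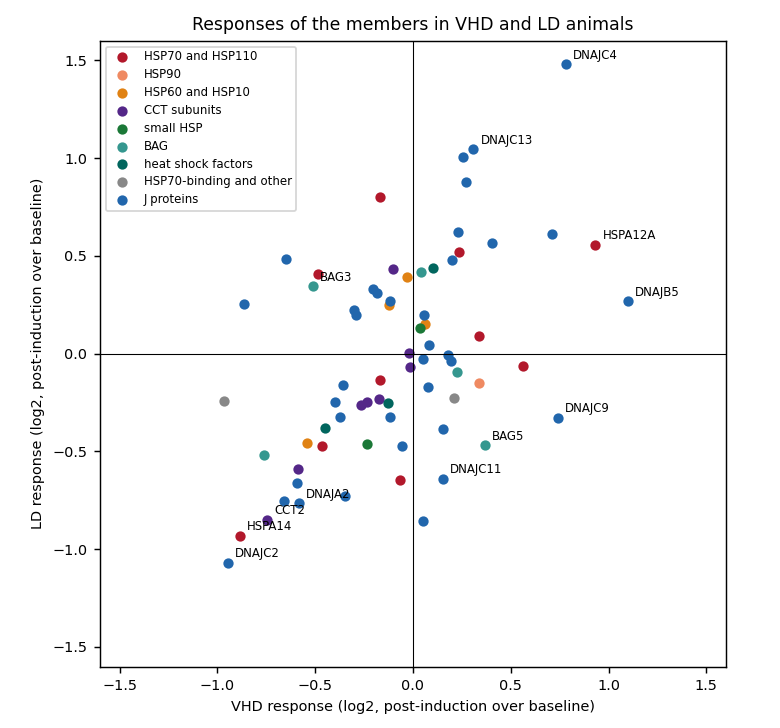
Log2 response of the 71 tested members in LD animals (y axis) against VHD animals (x axis), with colours for families. CCT2, HSPA14, DNAJA2 and DNAJC2 lie at the lower left, and DNAJB5 (1.10 and 0.27) and BAG3 (-0.51 and 0.35) are among those whose responses were further apart.

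The next question was whether the response differed between the classes (VHD response minus LD response). No member passed (0 of 71, beside 0% of all genes, in edgeR's quasi-likelihood test; 0 in DESeq2), and 0 had an unadjusted p under 0.05, beside 1.3% of all genes (0.207% higher and 1.09% lower). The intervals were wide, with a median SE of 0.59, and within 1 log2 unit of 0 for 4 members only. Among members with an average log2 CPM of at least 1, the lowest p on the positive side belonged to DNAJC11, a mitochondrial J protein (0.79 ± 0.47), BAG5 (0.83 ± 0.52), DNAJB5 (0.83 ± 0.56), DNAJC9 (1.07 ± 0.92) and the splicing-linked DNAJC8 (0.54 ± 0.47). On the negative side they belonged to BAG3 (-0.86 ± 0.59), DNAJC13 (-0.74 ± 0.62), the mitochondrial DNAJA3 (-0.49 ± 0.46), DNAJC16 (-0.50 ± 0.47) and HSPH1 (-0.89 ± 0.90), and all 10 had adjusted p = 1. These values moved with single libraries, other than those of DNAJC11 and BAG5, which stayed within a factor of 1.5. Without LD post-induction 3 the value of BAG3 was -0.18, that of HSPH1 -0.20 and that of DNAJC8 0.35. Without VHD baseline 2 that of DNAJC13 was -0.077, that of DNAJC16 -0.155 and that of DNAJA3 -0.31. DNAJC9 was at -0.39 without VHD post-induction 3, DNAJB5 at 0.44 without VHD post-induction 2 and at 0.47 without LD baseline 2, and DNAJA3 at -0.24 without LD post-induction 1 and at -0.28 without LD baseline 1. DNAJC13 was at -0.47 without LD post-induction 2, and without VHD post-induction 2 DNAJC16 was at -0.32 and HSPH1 at -0.47. The omission of a library also enlarged some values, with HSPH1 at -2.05 without VHD post-induction 3, DNAJC9 at 1.82 without VHD baseline 3 and DNAJC8 at 0.93 without LD post-induction 1. All 3 VHD changes lay above all 3 LD changes for 1 member (BAG5, beside 1.92% of all genes) and below them for 1 (DNAJC18, beside 2.76%), which had few counts (-1.13 ± 0.82).

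At baseline, before any ethanol, 0 of 71 members passed between the classes (beside 0.00544% of all genes, edgeR's quasi-likelihood test; 0 in DESeq2), and 0 had an unadjusted p under 0.05, beside 1.86% (1.43% higher and 0.425% lower). HSP90AB1 had 83.8, 55.6 and 78.4 CPM in VHD baseline libraries, against 147, 159.6 and 57.8 CPM in LD baseline libraries. LD1 and LD2 were above all VHD animals and LD3 was not, for a log2 fold change of -0.74 ± 0.40 (95% interval -1.60 to 0.11, adjusted p = 1.00). BAG5, a BAG protein that exchanges the nucleotide of HSP70, had 3.42, 2.77 and 2.70 CPM in VHD baseline libraries, against 5.19, 5.88 and 3.52 CPM in LD baseline libraries.

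The BAG5 groups did not overlap (-0.72 ± 0.37, adjusted p = 1.00). It was the only member whose VHD baseline libraries were all lower, and 0 were all higher, beside 3.08% and 4.13% of all genes. The other named members at this level were DNAJA3 (0.56 ± 0.32), DNAJC4 (0.63 ± 0.54), the endoplasmic reticulum J protein DNAJB12 (0.44 ± 0.41) and CCT6B (-0.64 ± 0.57), whose groups overlap. Without VHD baseline 3 the value of DNAJB12 was 0.01, and without VHD baseline 2 that of DNAJC4 was 0.068, that of DNAJA3 0.36 and that of DNAJB12 0.67. CCT6B was at -0.29 and DNAJB12 at 0.28 without LD baseline 3, and DNAJC4 was at 0.35 and DNAJA3 at 0.32 without LD baseline 1. Without LD baseline 2 DNAJC4 was at 1.07 and HSP90AB1 at -0.49.

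Post-induction, 0 of 71 members passed between the classes (beside 0% of all genes, edgeR's quasi-likelihood test; 0 in DESeq2). An unadjusted p under 0.05 was met by 3 members, or 4.23% beside 2.44% of all genes (1.44% higher and 0.996% lower), and each of these values leaned on 1 library or animal. DNAJB5 was higher in VHD animals without overlap (0.92 ± 0.40, adjusted p = 0.999), and without VHD post-induction 2 the value was 0.54. BAG3 was lower (-0.94 ± 0.42, adjusted p = 0.999), and without LD post-induction 3 it was -0.27. DNAJB5 was the only member whose VHD libraries were all higher, and 0 were all lower, beside 2.67% and 2.16% of all genes.

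DNAJC9, a cochaperone that guards histones H3 and H4 before they join chromatin, was the last of the 3. It had 12.8, 14.0 and 85.7 CPM in VHD post-induction libraries, against 17.9, 10.9 and 11.8 CPM in LD post-induction libraries. At baseline it had 14.5, 12.7 and 40.1 CPM in VHD libraries, against 16.8, 19.2 and 14.9 CPM in LD libraries. Both libraries of animal VHD3 were above all other 10, on either side of the induction, and the fold change of 1.48 ± 0.66 (adjusted p = 0.999) was -0.02 without that animal. FAM149B1, which overlaps DNAJC9 on the other strand, had 7.35 and 6.998 CPM in the libraries of VHD3 and 4.50 to 9.52 CPM in the other 10, so it was not high there. CCT6B (-1.18 ± 0.56), the uncertain HSPE1 identifier on chromosome 11 (-0.71 ± 0.48) and DNAJC11 (0.43 ± 0.33) also had low p in their directions, with overlapping groups. HSPE1 on chromosome 11 was at -0.055 without LD post-induction 1, and CCT6B was at -2.22 without VHD post-induction 3. DNAJC11 was at 0.21 without VHD post-induction 2, at 0.23 without LD post-induction 2 and at 0.75 without LD post-induction 1.

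Chaperones outside the chosen symbols passed no test in the mean response either. Of 25 other cytosolic chaperones and cochaperones, 23 were tested and 0 passed, with 9 positive and 14 negative values and a median of -0.09. The prefoldin subunit PFDN4, part of the complex that hands actin and tubulin to CCT, had the lowest p, at -1.003 ± 0.28 (adjusted p = 0.253). It had 4.00, 2.63 and 3.97 CPM in VHD post-induction libraries, against 9.21, 8.25 and 4.00 CPM in VHD baseline libraries, and 8.16, 4.59 and 3.93 CPM in LD post-induction libraries, against 11.2, 10.2 and 11.9 CPM in LD baseline libraries. Of the other 4 prefoldin subunits tested, PFDN1 had -0.14 ± 0.20, VBP1 -0.12 ± 0.20, PFDN5 -0.17 ± 0.45 and PFDN6 0.23 ± 0.33. Of 19 mitochondrial and endoplasmic reticulum chaperones outside the choice, 16 were tested and 0 passed, with 11 positive and 5 negative values and a median of 0.22. HSPA5 (BiP) had -0.27 ± 0.32 and HSP90B1 (GRP94) -0.07 ± 0.36 among them.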

How the data were processed

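The 12 libraries were made from 500 ng of liver RNA with a RIN above 8.5 (NEXTFLEX Combo-Seq, reads of 76 bases), per the labels' protocols. The authors deposited expected counts per Ensembl transcript, of which 40.1% were whole numbers. The build was Mmul_8.0.1, and Partek, BWA and Bowtie were used, per the submitters' processing notes. Tool versions, annotation release and strand setting were not given in the sources used here, and whether a start counts from 0 or 1 was not settled. The 40611 transcripts were summed per gene identifier and rounded. Symbols came from an Ensembl name table, and 8522 identifiers had none.

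After filterByExpr by group, edgeR 4.0.16 (under R 4.3.3) was run on all genes: 4 group means over 12 libraries, TMM factors, the quasi-likelihood F test with robust dispersion and Benjamini-Hochberg adjustment over all genes in each of 6 comparisons (threshold 0.05). CPM used TMM-scaled totals, and changes per animal used log2 CPM with a prior count of 2. The SE was the size of the log2 fold change divided by the square root of F. CPM were not divided by transcript length, so levels are not compared between genes. The fit was tested on simulated counts.

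The animals named in the titles pair the libraries, and a block for the animal was tried. Deviations of the 2 libraries of an animal correlated at -0.35 to 0.41, beside -0.52 to 0.33 with other animals of its class. For LD1, LD3 and VHD1 the animal's own library gave the highest value. For LD2, VHD2 and VHD3 another animal did, so the pairing was not visible in these. DESeq2 1.42.0, RLE factors, no filter, a filter of 1 CPM in 3 libraries, fits on the compared groups alone and the omission of single libraries were further alternatives. Once the data had been seen, a term for the side of the first component was added, as were fits lacking animal VHD3 or lacking VHD post-induction 2 together with VHD baseline 3. The members and lists were chosen with earlier results of these data known. Named were members past the threshold, those with the smallest p in each direction (5 in the mean response and the difference of responses, 3 in the other comparisons, average log2 CPM of at least 1), a panel of well-known chaperones and members not tested. CCT subunits, members highest in 1 library, DNAJC14, DNAJC10, DNAJB11, DNAJC25 and genes outside the chosen symbols were named after their values were seen, or for their role. Separate animals stand behind the replicates. The value of 22 members whose gene overlaps another is uncertain. For neighbours on the other strand this holds where reads were not assigned by strand, and for those on the same strand it holds either way.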

Additional observations from a re-analysis of the deposited data

Results flagged for a closer look

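BAG5, a nucleotide exchange factor of HSP70, was higher post-induction in 3 of 3 VHD animals (by 0.40, 0.12 and 0.52 on the log2 scale) and lower in 3 of 3 LD animals (-0.15, -0.84 and -0.43). The difference of responses was 0.83 ± 0.52 and did not pass (adjusted p = 1 in edgeR's quasi-likelihood test). It was 1 of 10 members with the lowest p in that comparison that were looked at for opposite directions. All VHD changes lay above all LD changes in 1.92% of all genes, a looser rule that does not ask for opposite directions. The share of all genes with opposite directions was not counted. BAG5 was also lower in VHD animals at baseline (2.70 to 3.42 CPM, against 3.52 to 5.88 CPM in LD animals), and both values use the same baseline libraries. Its counts were low, at 27 to 93 per library.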

How the results depend on the processing

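No member was called in any of the 6 comparisons under any alternative except DESeq2, which called 2 in the mean response (CCT2 and HSPA14, both lower, beside 2.25% of the genes it gave an adjusted p). Leaving out each library gave 0 to 0 calls in every comparison, and the replicate block for the animal gave 0 as well; it turned only the sign of DNAJB1 (-0.056). Of the values of named members under alternatives, 1051 kept sign and call, 2 became calls and 47 changed sign. Without animal VHD3 these were DNAJC3 (-0.04), HSPD1 (-0.11), HSPE1 on chromosome 11 (-0.13) and DNAJC9 between classes post-induction (-0.018). Without VHD baseline 3 and VHD post-induction 2 they were HSPB8 (-0.17), HSPE1 on chromosomes 11 (-0.068) and X (-0.015) and HSPH1 (0.016), and with a term for the first component HSPA9 (0.23) and HSPB8 (-0.035). Leaving out 1 library gave mean responses of -0.42 to 0.045 for BAG3, -0.34 to 0.17 for DNAJB1, -0.066 to 0.13 for DNAJC3, -0.078 to 0.21 for HSP90AB1, -0.63 to 0.10 for HSPA9, -0.12 to 0.21 for HSPB8, -0.10 to 0.35 for HSPD1, -0.27 to 0.26 and -0.38 to 0.47 for HSPE1 on chromosomes 11 and X, and -0.69 to 0.17 for HSPH1. For DNAJC9 it gave -0.39 to 1.82 in the difference of responses and -0.015 to 1.88 between classes post-induction. Over all genes the mean response had 49 calls, against 284 in DESeq2, 4 with the replicate block, 103 with the component term, 32 without the 2 libraries apart, 0 without animal VHD3 and 0 to 71 without 1 library. The calls were 31 or fewer without VHD post-induction 1 or 3, VHD baseline 1 or 2, LD post-induction 2 or 3, or LD baseline 2 or 3. The causes of these shifts were not tested. With 3 libraries a group, members under 1 CPM rest on few counts.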
